A study of Mus musculus with 8 samples.

Results

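Muscle fibres contract through sarcomeres, in which thick filaments of myosin pull on thin filaments of actin that are anchored at the Z-disc, and calcium released from the sarcoplasmic reticulum after a nerve impulse starts each contraction. The genes examined here encode these parts: 54 genes for the thick filament, the thin filament, the Z-disc and its cytoskeleton, calcium handling and a pair of enzymes, chosen by name from 21900 protein-coding genes. Muscle stem cells, which lie beside the fibres, are known to build few or no sarcomeres until they differentiate, and fast and slow fibres use different members of most of these families. Expression was not measured, so neither the silence of these genes nor the identity of the cells was checked against markers.

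DNA methylation was read by reduced representation bisulfite sequencing, which sequences a CpG-rich fraction of the genome cut out by a restriction enzyme, in 8 samples of sorted mouse muscle stem cells. All mice were heterozygous for the transgene (Tg:Pax7-nGFP/+), by which the promoter of the stem cell factor Pax7 drives a nuclear green fluorescent protein. The 4 fixed samples were treated with 0.5% paraformaldehyde and the 4 live samples were not, with 1 animal per sample, and DNA of all samples was extracted with a kit made for fixed tissue. The sample titles name the fixed group T0 and the live group T3 without explaining either term, and the series title speaks of fixation in situ where the design text places it after isolation. Other differences in handling therefore cannot be told apart from fixation.

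The deposited lists hold 27878 clusters, which are intervals of 1 bp or more, with the authors' verdict on each and no value per sample. How measured sites were joined into clusters is not given, and 8.87% of all clusters span only 1 bp. A cluster was counted at a gene when it overlapped the RefSeq gene (GRCm38.p6, the assembly that mm10 names) or 3000 bp on either side of it. By this rule 66 clusters, 0.237% of all, lay at 30 of the 54 genes, on a set of genes that spans 16 chromosomes. The other 24 genes held none. Levels, read depths and the spread between animals are not given for these clusters in the files used here. What follows therefore describes where clusters lay at the contraction genes and whether they were called different.

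Clusters were next placed on the sequence at the gene start. A start without a cluster may still have been read, since the filter behind the lists is not given. RefSeq's promoter table for GRCm38.p6 lists 300 bases, 250 before and 50 from the start onward, for 42 of the 54 genes, 8 of them with more than 1 start, which gave 50 starts. Clusters reached 4 of these starts, at Acta1 (skeletal muscle actin, the main thin filament protein), Cacnb1 (the beta subunit of the calcium channel that senses the impulse), Pvalb (parvalbumin, a calcium buffer of fast fibres) and Ckm (muscle creatine kinase, which regenerates ATP). These sequences are printed 5′ to 3′ because they show how unequally clusters spanned the starts, and capitals mark the bases that lie inside a cluster.
Acta1 (chr8:123894726-123895025, minus strand): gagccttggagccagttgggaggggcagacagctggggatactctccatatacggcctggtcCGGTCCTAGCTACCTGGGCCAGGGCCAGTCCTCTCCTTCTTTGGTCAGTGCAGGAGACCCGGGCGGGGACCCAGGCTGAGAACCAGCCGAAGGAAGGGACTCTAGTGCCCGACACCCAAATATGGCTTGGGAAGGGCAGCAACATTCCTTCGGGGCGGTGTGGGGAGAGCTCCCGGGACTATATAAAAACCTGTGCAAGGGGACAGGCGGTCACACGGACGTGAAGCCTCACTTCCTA
Cacnb1 (chr11:98018323-98018622, minus strand): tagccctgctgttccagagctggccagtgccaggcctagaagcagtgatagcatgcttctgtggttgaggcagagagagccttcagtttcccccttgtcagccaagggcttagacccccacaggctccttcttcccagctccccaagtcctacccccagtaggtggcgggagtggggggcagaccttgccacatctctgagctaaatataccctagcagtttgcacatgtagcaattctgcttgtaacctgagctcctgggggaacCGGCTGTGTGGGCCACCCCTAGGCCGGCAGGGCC
Pvalb (chr15:78204188-78204487, minus strand): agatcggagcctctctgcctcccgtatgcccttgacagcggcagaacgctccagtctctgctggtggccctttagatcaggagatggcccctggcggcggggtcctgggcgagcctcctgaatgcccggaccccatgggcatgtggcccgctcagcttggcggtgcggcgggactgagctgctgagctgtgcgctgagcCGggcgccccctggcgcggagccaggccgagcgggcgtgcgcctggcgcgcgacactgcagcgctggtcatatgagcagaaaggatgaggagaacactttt
Ckm (chr7:19410844-19411143, plus strand): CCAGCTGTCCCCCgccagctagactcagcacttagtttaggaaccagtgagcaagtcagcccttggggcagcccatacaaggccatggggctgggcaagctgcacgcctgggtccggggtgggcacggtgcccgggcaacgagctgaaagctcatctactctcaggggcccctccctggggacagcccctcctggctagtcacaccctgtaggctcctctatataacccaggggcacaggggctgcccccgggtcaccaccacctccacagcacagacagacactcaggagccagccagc

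At Acta1 the cluster spanned 238 of the 300 bases and 11 of the 12 CpG sites. At Cacnb1 it spanned 34 bases with 2 of 3 CpG sites, at the downstream edge of the window. At Pvalb it spanned 2 bases with 1 of 25 CpG sites, and at Ckm 13 bases with 1 of 7, at the upstream edge. The bounds of a cluster over a start window thus took in nearly all of its CpG sites at Acta1 and 1 site at Pvalb and Ckm. Which of the sites between the bounds were read is not given in the lists.

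For contrast, the next sequences belong to starts without a cluster, and capitals mark CCGG, the site of MspI, the enzyme commonly used for this assay (the labels name the kit and not the enzyme). Myl4 (a myosin light chain of embryonic muscle and the atrium) and Tpm1 (tropomyosin 1, which covers the myosin sites on actin) have CpG-rich starts, and Myh4 (the myosin heavy chain of the fastest mouse fibres) has a CpG-poor one.
Myl4 (chr11:104550413-104550712, plus strand): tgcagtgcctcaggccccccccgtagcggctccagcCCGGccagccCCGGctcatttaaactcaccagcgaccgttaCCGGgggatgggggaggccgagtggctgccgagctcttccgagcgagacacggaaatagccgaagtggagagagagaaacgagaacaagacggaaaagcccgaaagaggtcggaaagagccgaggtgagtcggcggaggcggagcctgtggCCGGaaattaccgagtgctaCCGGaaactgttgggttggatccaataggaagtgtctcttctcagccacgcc
Tpm1 (chr9:67049164-67049463, minus strand): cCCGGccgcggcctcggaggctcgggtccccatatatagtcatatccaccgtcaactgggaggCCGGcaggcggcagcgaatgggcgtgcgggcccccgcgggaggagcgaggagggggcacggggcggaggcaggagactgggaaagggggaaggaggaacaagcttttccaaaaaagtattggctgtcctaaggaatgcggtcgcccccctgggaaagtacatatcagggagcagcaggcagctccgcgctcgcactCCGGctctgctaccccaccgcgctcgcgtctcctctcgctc
Myh4 (chr11:67237562-67237861, plus strand): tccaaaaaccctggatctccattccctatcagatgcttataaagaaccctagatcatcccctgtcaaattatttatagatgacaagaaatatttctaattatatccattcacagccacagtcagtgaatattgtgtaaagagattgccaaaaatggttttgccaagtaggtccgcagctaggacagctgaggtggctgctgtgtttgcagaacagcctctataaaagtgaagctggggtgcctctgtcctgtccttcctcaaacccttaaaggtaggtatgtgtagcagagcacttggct

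Myl4 had 25 CpG and 5 CCGG sites in its start window, and the nearest cluster lay 50667 bp from the gene. Tpm1 had 27 CpG and 3 CCGG sites, and its window fell between a cluster that ended 329 bp upstream of the start and one that began 120 bp downstream. The RefSeq gene of Tpm1 reaches beyond this listed start. The upstream cluster therefore lay inside the gene, 29 bp from its outer bound. Myh4 had 1 CpG and no CCGG site, and the nearest cluster lay 58840 bp away. CpG-rich and CpG-poor starts were both found without a cluster.

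Over the 50 starts the number of CpG sites ran from 1 (Mybpc3, Myh4, Myl3, Tnnc1 and 1 start each of Myl2 and Tnnt2) to 34 (the upstream start of Cacnb1), with a median of 6, against a median of 7 over all 32851 listed starts. All 4 starts with a cluster held a CCGG in the window, and of the 25 starts without CCGG none had one. At Ckm the 13 covered bases held no CCGG, so its sites lay outside the cluster. Of the 25 starts with CCGG, 16.0% had a cluster. Over all listed starts the shares were 14.7% with CCGG and 0.0387% without. The CCGG site was spread unevenly over the roles, without a test: 2 of 19 thick filament starts held one (Myl1 and Myl4), none of the 10 starts of myosin heavy chains did, and 10 of 15 thin filament, 5 of 6 Z-disc and 7 of 9 calcium handling starts did. The median number of CpG sites was 3.5 at the myosin heavy chain starts, 6 at thin filament starts and 7 at Z-disc starts.

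**Figure D1:**
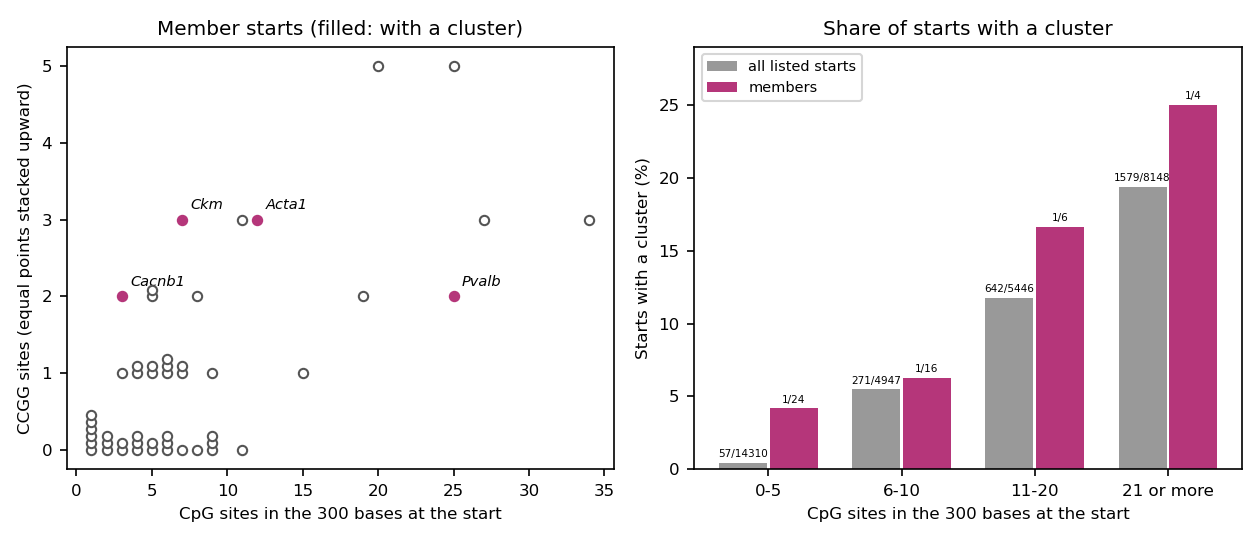
Left, CpG sites (x axis) and CCGG sites (y axis) in the 300 bases at each of 50 starts of the contraction genes, with the 4 starts that held a cluster filled and named; right, the percentage of starts with a cluster by number of CpG sites, for all 32851 listed starts (grey) and the 50 starts (magenta), with counts above the bars. In all starts the share rose from 0.398% with 0 to 5 CpG sites to 19.4% with 21 or more, and the contraction genes had 1 start with a cluster in each class.

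By gene rather than by start, 4 of the 42 genes with a listed start (9.52%) had a cluster over it, beside 11.0% of 17492 protein-coding genes. The 53 clusters at these 42 genes lay a median of 9741 bp from the nearest listed start, beside 3138 bp for clusters at protein-coding genes. Of the 53, 20.8% lay within 1000 bp of a start and 62.3% farther than 5000 bp, beside 37.4% and 45.4% at protein-coding genes. Each cluster counts once per gene, so long genes such as Ttn with 6 clusters and Ryr1 with 5, all far from the start, weigh more. The part of gene length in these distances was not tested. Near a start without covering its window were the cluster of Actn2, which began 202 bp downstream (chromosome 13, 12340399 to 12340530), and those of Des on either side, one ending 261 bp upstream (chromosome 1, 75359835 to 75360031) and one beginning 677 bp downstream (75360969 to 75361026). Actn2 encodes the actin crosslinker of the Z-disc and Des encodes desmin, the intermediate filament that ties Z-discs together.

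**Figure D2:**
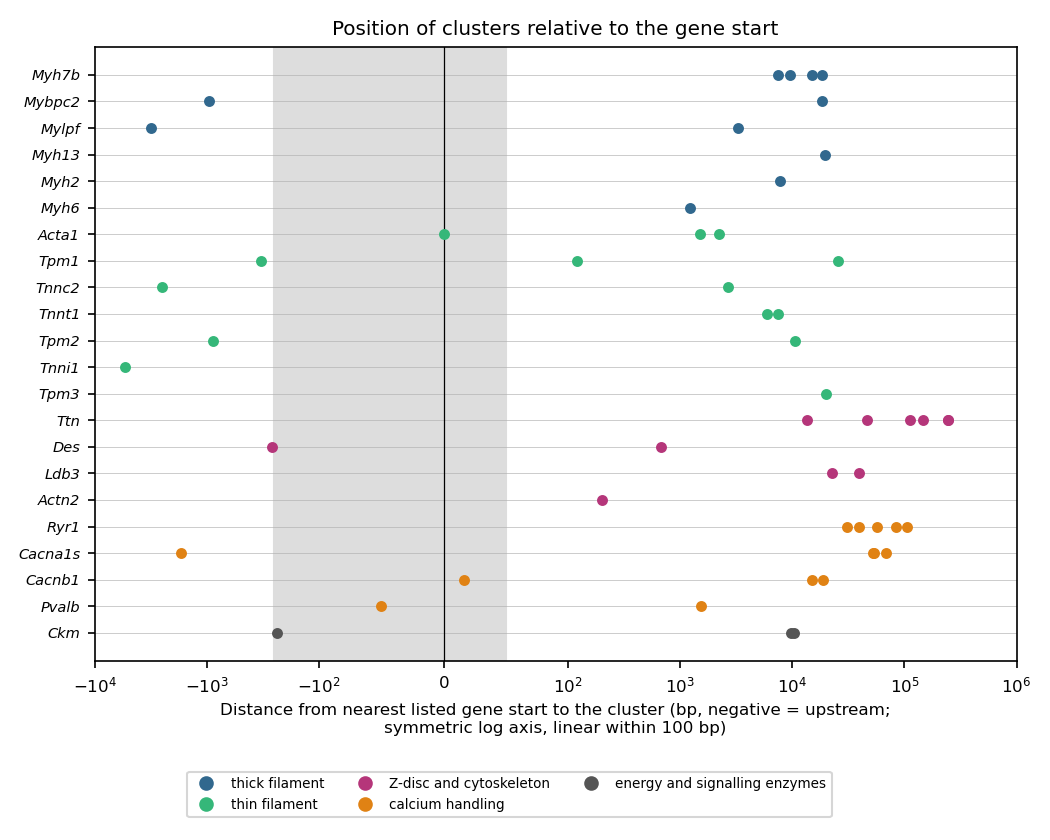
Each point is 1 of the 53 clusters at the 22 contraction genes that have both a listed start and a cluster, placed by the distance in bp of its nearer edge from the nearest listed start (x axis, symmetric log scale, 0 for a cluster over the start) and coloured by role; the grey band is the start window. Points in the band belong to Acta1, Cacnb1, Pvalb and Ckm, and the clusters of Ttn and Ryr1 all lie farther than 10000 bp inside the gene.

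None of the 66 clusters at the contraction genes was called different between fixed and live samples. In the whole series the authors called 0.0753% of clusters, 21 of 27878, and a count of 0 among 66 allows a called share of up to 4.55% (3 clusters, counting error only), which lies far above that background. With so few clusters the count cannot show that these genes were called less often than others. The called region nearest to any of the genes lay 228 kb from Myl4, at 104318117 to 104318237 on chromosome 11, assigned to Kansl1. The authors' deposited table gives it a methylation difference of 14.5 percentage points and does not state the order of its groups. The next lay 723 kb from Acta1, assigned to Capn9 on chromosome 8, for which the authors' deposited table lists -10.8 points. The list of clusters that were not called opens with 73 that stand before its ordered part, and 0 of the 66 were among them.

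The share of contraction genes with a cluster was 55.6% (30 of 54, exact Clopper-Pearson 95% interval 41.4 to 69.1%), beside 47.9% of all protein-coding genes, and the interval holds that value. Single clusters were found at 11 genes, 2 at 9 genes, 3 at 6 genes and 4 or more at 4 genes. Across all protein-coding genes, those with a cluster were longer (median 26.5 kb) than those without (11.1 kb). The contraction genes with a cluster had a median length of 23.0 kb and those without had 19.6 kb, and the part of gene length in any difference between roles was not tested. Intervals here cover counting error only, and genes of a chosen list are not a random draw.

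**Figure D3:**
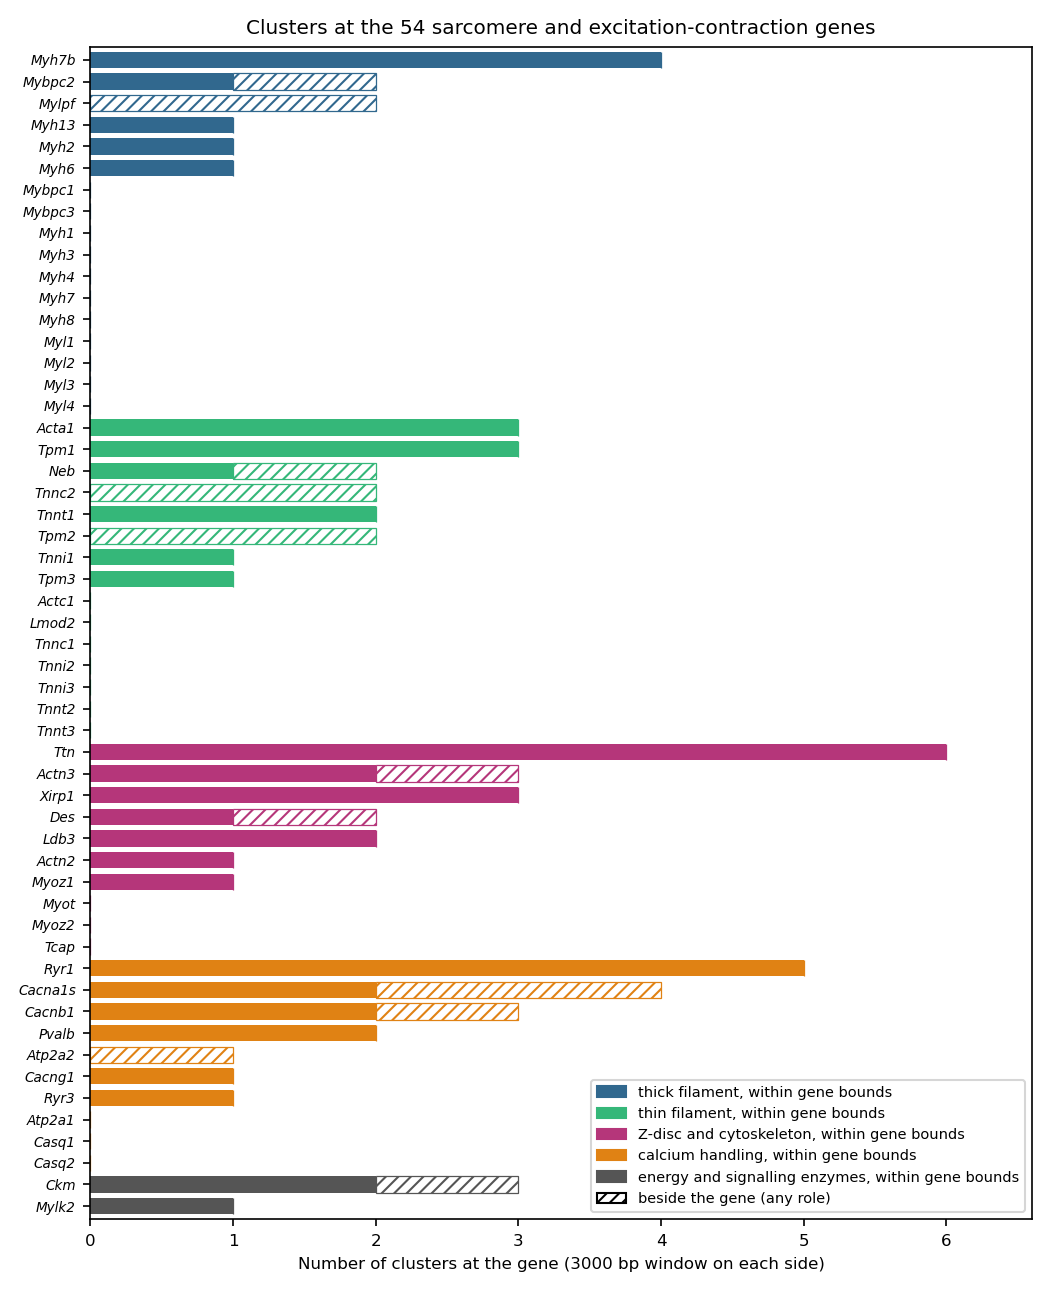
Number of clusters (x axis) at each of the 54 genes (y axis, ordered by role and count), with filled bars for clusters that overlap the gene and hatched bars for those in the 3000 bp beside it. Ttn leads with 6, followed by Ryr1 with 5, and 24 genes stand at 0.

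Thick filament genes held 11 clusters at 6 of 17 genes. Of the 9 myosin heavy chains, the motors of contraction, Myh7b held 4 clusters, all inside the gene, the nearest to its start at 7448 bp (chromosome 2, 155618691 to 155618822). Myh7b also hosts Mir499, a microRNA of slow and cardiac muscle, whose hairpin lay 1845 bp from the nearest cluster. Myh2 (the heavy chain of fast oxidative fibres) held 1 cluster of 236 bp at chromosome 11, 67178737 to 67178972. Myh13 (the heavy chain of eye muscles) held 1 at 67346851 to 67346948 on the same chromosome. Myh6 (a cardiac heavy chain, also in eye and jaw muscles) held 1 at chromosome 14, 54965300 to 54965376.

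Of the 6 myosin heavy chain genes that stand side by side on chromosome 11, Myh3, Myh2, Myh1, Myh4, Myh8 and Myh13, only Myh2 and Myh13 held a cluster with this window. The embryonic Myh3, the perinatal Myh8 and the fast Myh1 and Myh4 held none, nor did Myh7 on chromosome 14, the slow fibre heavy chain, which hosts Mir208b. Among 5 light chains, which stiffen the myosin lever arm, Mylpf (the fast regulatory light chain) held 2 clusters and Myl1, Myl2, Myl3 and Myl4 held none. Both Mylpf clusters lay beside the gene and overlapped neighbouring genes, Tbc1d10b and Septin1. Of the myosin-binding proteins C, which tether myosin heads, the fast Mybpc2 held 2, one ending 953 bp upstream of its start, and the slow Mybpc1 and the cardiac Mybpc3 held none.

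Thin filament genes held 16 clusters at 8 of 15 genes. Acta1 held 3 within 3.02 kb, at 123894721 to 123894963 (over the start), 123893146 to 123893275 and 123892351 to 123892573 on chromosome 8, with lengths of 243, 130 and 223 bp. Actc1, the cardiac actin that is also made in developing muscle, held none, with its nearest cluster 33736 bp away. All 3 tropomyosin genes held clusters, 3 at Tpm1, 2 at Tpm2, both beside the gene, and 1 at Tpm3, the slow fibre form, 19766 bp from the nearest listed start. One of the Tpm2 clusters overlapped the neighbouring gene Car9.

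Troponins, the calcium switch on the thin filament, held clusters at 3 of 8 genes. Tnnt1 and Tnni1, slow forms of the tropomyosin-binding and inhibitory subunits, held 2 and 1, all inside the gene. Tnnc2, the calcium-binding subunit of fast fibres, held 2, both outside the gene, at 93 bp from its downstream end (chromosome 2, 164777019 to 164777068) and 2534 bp upstream of its start. The fast Tnnt3 and Tnni2 and the slow or cardiac Tnnt2, Tnni3 and Tnnc1 held none. Neb (nebulin, which runs along the thin filament) held 2 clusters in 202 kb, 1 of them outside the gene at 52338999 to 52339069 on chromosome 2, and Lmod2 (an actin filament nucleator) held none.

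Z-disc and cytoskeleton genes held 18 clusters at 7 of 10 genes. Ttn (titin, the spring that spans the sarcomere) held 6, spread over 279 kb, the nearest to its start at 13591 bp (chromosome 2, 76968924 to 76968956). Xirp1 (an actin-binding repeat protein of attachment sites) held 3 in 9.84 kb, 1 of 285 bp over an outer bound of the gene (chromosome 9, 120023495 to 120023779). Actn3, the fast fibre partner of Actn2, also held 3, 1 of them over an outer bound of the gene (chromosome 19, 4877735 to 4877914) and 1 of 1 bp in the neighbouring gene Zdhhc24. Des and Ldb3 (a PDZ and LIM domain protein that binds actinin) held 2 each, and Actn2 and Myoz1 (a calcineurin-binding Z-disc protein of fast fibres) held 1 each, that of Myoz1 over an outer bound (chromosome 14, 20656408 to 20656541). Myoz2, its slow and cardiac counterpart, Myot (myotilin) and Tcap (which caps titin at the Z-disc) held none.

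Calcium handling genes held 17 clusters at 7 of 10 genes. Ryr1, the calcium release channel of the sarcoplasmic reticulum, held 5 in 122 kb, among them the longest at any contraction gene, 482 bp at 29019500 to 29019981 on chromosome 7, far from the start (105170 bp). Ryr3, the minor release channel, held 1 cluster of 2 bp in 586 kb. Of the voltage-gated channel that triggers release, the pore subunit gene Cacna1s held 4 clusters, Cacnb1 held 3 and Cacng1 held 1. The upstream cluster of Cacna1s overlapped the neighbouring gene Ascl5. The Cacnb1 cluster at its downstream start lay at 98018305 to 98018356 on chromosome 11, while its upstream start, with 34 CpG and 3 CCGG sites, had none.

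Of the calcium pumps, Atp2a2, the slow and cardiac form, held 1 cluster, 255 bp outside the gene (chromosome 5, 122502480 to 122502522). Atp2a1, the fast form, held none, with the nearest cluster 24189 bp away. The calcium stores Casq1 (fast) and Casq2 (slow and cardiac) held none, although a cluster lay 3238 bp from Casq1, just outside the window and the nearest of any gene without a cluster. Pvalb held 2, at 78202592 to 78202708 and 78204287 to 78204288 on chromosome 15. The latter lay in the window of its downstream start, while its upstream start, with 5 CpG and 2 CCGG sites, had none. Of the enzymes, Ckm held 3, 1 upstream at 19410834 to 19410856 on chromosome 7 and 2 near the downstream end, and Mylk2 (the myosin light chain kinase of skeletal muscle) held 1.

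By fibre type, 7 of 14 fast genes (exact interval 23.0 to 77.0%) and 6 of 17 slow or cardiac genes (35.3%, 14.2 to 61.7%) held a cluster, with 13 and 10 clusters. These intervals overlap over most of their length. The 20 genes that were not assigned to a fibre type, among them Ttn, Ryr1 and Acta1, held most of the clusters, 43 of 66. These lay at 17 genes (85.0%, 62.1 to 96.8%), beside 47.9% of protein-coding genes. This group is what remained after typing, and its median gene length was 21.6 kb. It takes in the long genes Ryr3 (586 kb), Ttn (279 kb), Neb (202 kb) and Ryr1 (122 kb). Whether its share differs from that of other genes, and the part of length in it, was not tested. Neither developmental myosin heavy chain, Myh3 or Myh8, nor Myl4 held one. Within pairs of fast and slow forms the pattern went either way. Myoz1, Mybpc2, Tnnc2 and Mylpf held clusters where Myoz2, Mybpc1, Tnnc1 and Myl2 held none. Tnnt1, Tnni1 and Atp2a2 held clusters where Tnnt3, Tnni2 and Atp2a1 held none. The clusters of Tnnc2, Atp2a2 and Mylpf all lay beside the gene, those of Mylpf overlapping its neighbours, so these pairs differ only through the window. Of the pair Casq1 and Casq2 neither held one.

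**Figure D4:**
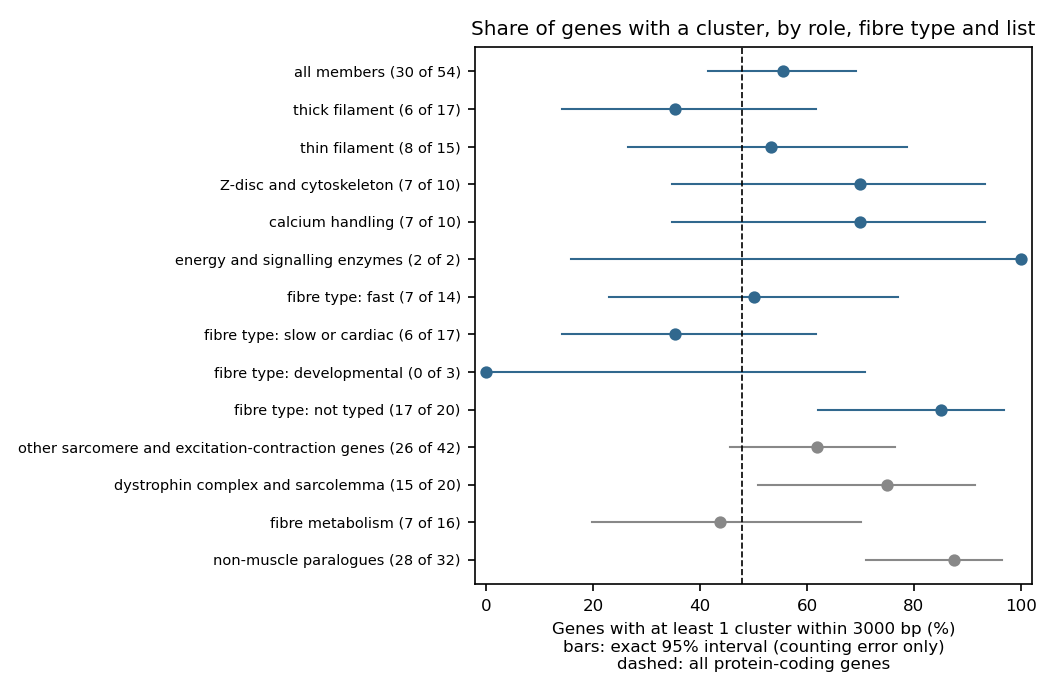
Percentage of genes with at least 1 cluster within 3000 bp (x axis) for the contraction genes by role and fibre type (blue) and for 4 other gene lists (grey), with exact 95% intervals as bars and all protein-coding genes (47.9%) as the dashed line. The intervals of the 5 roles and of the fast, slow or cardiac and developmental genes hold the dashed line. Those of the genes not assigned a fibre type, of the dystrophin list and of the list labelled non-muscle paralogues lie above it. The intervals cover counting error only, for chosen lists, and the part of gene length was not tested.

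The 66 clusters covered 7386 bp, with lengths from 1 to 482 bp and a median of 95.5 bp, beside 89 bp over all clusters. Clusters of 1 bp made up 7.58% of them, beside 8.87% of all. Of the 66, 51 overlapped the gene and 15 lay beside it, and 5 overlapped another protein-coding gene. Exons and introns were not annotated here. At 4 genes, Mylpf, Tnnc2, Tpm2 and Atp2a2, all clusters lay beside the gene. For the 24 genes without a cluster, the nearest lay a median of 21242.5 bp away, and the farthest was 107710 bp from Myl1. No cluster was shared by 2 of the genes.

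Other muscle fibre genes were counted in the same way. A list of 42 other sarcomere and excitation-contraction genes held 73 clusters at 26 genes (61.9%), among them 10 at Cacna1c (the cardiac calcium channel pore) and 5 each at Obsl1 and Unc45b. A list of 20 genes of the dystrophin complex and the fibre membrane held 31 clusters at 15 genes (75.0%), with most at Dysf (7, dysferlin), Dmd (5, dystrophin) and Chrna1 (3, an acetylcholine receptor subunit). A list of 16 genes of fibre metabolism held 19 clusters at 7 genes (43.8%), with most at Aldoa and Eno3 (4 each), followed by Phka1 and Pygm (3 each). Of the clusters in these 3 lists 0 were called. Their median gene lengths were 37.7, 39.9 and 11.4 kb, in the order given, beside 17.1 kb for all protein-coding genes. The part of length in these shares was not tested.

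A last list, labelled non-muscle paralogues, takes in non-muscle, neuronal, smooth muscle and cardiac genes, not all of them paralogues in the strict sense. It held 79 clusters at 28 of 32 genes (87.5%), with 0 called and most at Cacnb3 (7), Cacna1a (6) and Myh14 (6). The median length of these genes was 61.6 kb, beside 21.6 kb for the contraction genes, and the part of length in this share was not tested. Over their start windows 3 of 28 (10.7%) held a cluster, beside the 4 of 42 contraction genes.

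The start windows of the contraction genes were also searched on both strands for motifs of muscle promoters. The CArG box, which the serum response factor binds, was found at 7 of 50 starts (14.0%), beside 1.63% of all listed starts, and these belong to Acta1, Actc1, Ldb3, Myh4, Myh13 and Myl3, with 1 box counted at both starts of Ldb3. The E-box CANNTG, the sequence bound by myogenic regulatory factors, was found at 84.0%, beside 72.3% of all, and TATAAA at 11 of the 50, beside 13.6% of all. A TATAAA can lie within a CArG box, and CCGG contains CG. At Acta1 the box CCAAATATGG, 73 to 64 bases before the start, and a TATAAA both lay inside the cluster printed above in capitals. Of the CArG boxes found, that of Acta1 alone lay inside a cluster. These matches are letters in a window and say nothing about binding.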

How the data were processed

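The deposited files are 2 lists of clusters, called different or not between fixed and live samples, and the authors' deposited table of the called regions. Positions are in bp on mm10, and the score column of both deposited lists is 0 throughout and was not used. From the table the positions and the signed difference were read, a score by the authors on a fraction scale, given here in percentage points. Tools in the submitters' processing notes are ChIPseeker 1.12.1, Bismark 0.14.4 and Trim Galore 0.4, with no role stated. The tool that called the regions, its filter and its threshold were not given in the sources used here. Read depth per sample is unknown.

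Clusters of both lists were pooled and overlapped by at least 1 bp with RefSeq genes of GRCm38.p6 extended by 3000 bp, matched by symbol (54 of 54). Starts, strands and sequences came from RefSeq's promoter table for GRCm38.p6. It lists no start for Actn3, Tnnt3, Tnni2, Neb, Myoz1, Myot, Tcap, Ryr3, Cacng1, Atp2a2, Mylk2 and Xirp1. Clusters at these genes were therefore not placed by start or strand. Overlaps and intervals were computed in Python 3.11.15 with scipy 1.17.1, numpy 2.4.6 and pandas 2.3.3 and drawn with matplotlib 3.10.9. The overlap code was tested on simulated data. Shares of genes carry exact Clopper-Pearson 95% intervals. No test was run, since the files hold no value per sample. The genes and lists were chosen with earlier results of these data known. Every contraction gene is named, of other lists the genes with most clusters, except 1 result that is not reported here. Alternatives covered window size, minimum length, overlap and merging.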

Additional observations from a re-analysis of the deposited data

How the results depend on the processing

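The number of contraction genes with a cluster was 30 and ran from 26 (gene itself only) to 35 (10000 bp windows) over windows of 0, 1000 and 10000 bp, clusters of at least 50 bp, clusters lying whole inside the window and merging within 200 bp. The number of clusters ran from 51 to 84, the median length from 93 to 101.5 bp, and 0 clusters were called under any of these. The number of genes with a cluster at the start depended on the window: 4 of 42 as reported, 9 (21.4%) within 1000 bp and 12 (28.6%) within 3000 bp on each side, beside 29.6% and 34.1% of protein-coding genes. It was 2 with clusters of at least 50 bp, since the Pvalb and Ckm clusters are shorter. No paired analysis was possible because values per sample are not in the lists used here, and leaving out a replicate was not possible either. The read depth behind each cluster is unknown, which limits what clusters that were not called can show.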
